A study of Mus musculus with 42 samples.

Results

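The responses to 2 hormone-like signals were followed in mouse uterine tissue-resident NK (trNK) cells through 6 genes: Nr3c1, the glucocorticoid receptor, its induced genes Tsc22d3, Fkbp5 and Per1, and the prostaglandin E2 receptor genes Ptger2 and Ptger4. They were chosen by name for their roles, but after earlier results of these data had been seen. All 6 were found among the 54353 genes shared by the bulk files. The data were 34 bulk RNA-Seq libraries in 17 groups of 2, and 1 joined single-cell matrix that held 5 of the 6 genes (Nr3c1 was not analysed there). All mice were wild-type, C57BL/6 and, by the methods, 8 to 12 weeks old. Freshly sorted trNK cells (CD45+NK1.1+NKp46+CD49a+CXCR6-) came from virgin mice and from gestational day (gd) 6.5 and gd8.5, with the day of the plug counted as gd0.5. At gd8.5 they were also sorted by rising CD55 and 4-1BB into virginal, differentiating and terminal subsets, named trNK-V, trNK-D and trNK-T. For the inhibitor culture, trNK-V cells of gd6.5 mice were kept for 3 days without IL-21 (control), with 20 ng/ml IL-21, or with IL-21 and 1 µM Stattic by the labels (the methods print 1 mM), an inhibitor of STAT3, and were then sorted as live NK1.1+ cells. For the time course, trNK cells isolated at gd6.5 were sampled at 0, 6, 24 and 72 h without or with 20 ng/ml IL-21. By the paper's results section these were trNK-V cells. The labels do not say what IL-21 at 0 h means, so the 0 h groups are compared only by their labels. IL-15 was present in all cultures.

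The glucocorticoid receptor is held in the cytoplasm by chaperones and moves to the nucleus once it binds hormone, where it switches on genes that restrain inflammation. Tsc22d3 encodes GILZ, a repressor of inflammatory transcription, Fkbp5 encodes a co-chaperone that lowers the hormone affinity of the receptor, and Per1 is a clock gene that also answers to cAMP. Ptger2 and Ptger4 encode EP2 and EP4, which raise cAMP when they bind prostaglandin E2, an abundant mediator of the decidua that is known to dampen NK cell killing.

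Levels are given as RPKM, read counts scaled by gene length and by the total counts of the library. A gene was called when its adjusted p was below 0.05 and its fold change above 2 (edgeR's quasi-likelihood test with Benjamini-Hochberg adjustment over all genes tested). The genes lie, on GRCm38, at chr18:39410545-39491301 (Nr3c1, minus strand), chrX:140539528-140600659 (Tsc22d3, minus), chr17:28399094-28517527 (Fkbp5, minus), chr11:69095217-69109960 (Per1, plus), chr14:44988195-45003820 (Ptger2, plus) and chr15:5206661-5244187 (Ptger4, minus). Values count reads over all exons of each gene.

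The libraries held 11862089 to 66468883 counts and 10724 to 18276 detected genes, the fewest in a library of 72 h without IL-21. All 4 trNK marker genes were detected in every library, with a summed level of 228 to 1581 RPKM. Virgin library 2 stood apart from virgin library 1 in the 9 genes of the terminal stage, with a summed level of 21069 against 1391 RPKM, and the file of library 1 follows another gene annotation than all others. Macrophage markers summed to 262 and 352 RPKM in trNK-D and to 48.4 and 294 RPKM in trNK-V, against 18.2 and 14.9 RPKM in trNK-T. Erythrocyte markers reached 844 RPKM in gd8.5 library 2 and 224 RPKM in virgin library 2. Neutrophil markers were at or near 0 throughout, at most 1.32 RPKM. No label says that the 2 libraries of a group came from separate animals, so p-values measure only the spread between these libraries, which may be technical.

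Tsc22d3, Fkbp5 and Ptger2 were the 3 of these genes without a single read in the time-course libraries of 72 h without IL-21, as described further on. The 250 bases before 1 annotated start of each are shown for that reason, from RefSeq on GRCm38.p6, 5′ to 3′ on the gene's strand, with matches to the searched motifs in capitals. Tsc22d3 has 3 such windows in the table, of which the 1 with a match is printed (chrX:140548572-140548821, minus strand). The Fkbp5 window is chr17:28486150-28486399 (minus strand) and the Ptger2 window chr14:44987861-44988110 (plus strand).
Tsc22d3: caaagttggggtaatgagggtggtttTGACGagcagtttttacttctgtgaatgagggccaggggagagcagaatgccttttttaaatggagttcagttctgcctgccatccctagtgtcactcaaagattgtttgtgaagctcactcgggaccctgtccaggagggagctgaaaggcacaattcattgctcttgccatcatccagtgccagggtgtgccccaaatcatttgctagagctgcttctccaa
Fkbp5: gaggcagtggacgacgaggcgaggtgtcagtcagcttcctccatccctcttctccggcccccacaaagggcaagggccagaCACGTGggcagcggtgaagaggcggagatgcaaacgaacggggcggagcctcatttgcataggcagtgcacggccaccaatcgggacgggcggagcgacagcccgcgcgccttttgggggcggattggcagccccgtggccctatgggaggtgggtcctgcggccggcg
Ptger2: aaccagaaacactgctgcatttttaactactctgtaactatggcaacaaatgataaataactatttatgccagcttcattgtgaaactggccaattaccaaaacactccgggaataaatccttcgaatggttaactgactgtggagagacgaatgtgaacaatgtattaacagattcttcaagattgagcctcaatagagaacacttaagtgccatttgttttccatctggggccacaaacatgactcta

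Both strands of 32851 such windows were searched. The capitals in Tsc22d3 are TGACG, only the 5-base core of a cAMP response element, at position -224 from the start. Of all windows 17.8% hold it. That share is per window and not per gene, and Tsc22d3 has 3 windows. The full element, TGACGTCA, was found in 1.55% of all windows and in no window of the 5 genes searched. Those in Fkbp5 are an E-box, CACGTG, at position -169, which 6.02% of windows hold. The Ptger2 window matched no searched motif. The glucocorticoid receptor palindrome, AGAACA and TGTTCT with 3 bases of any kind between them, was found in 0.00913% of all windows, and its shorter form, GNACA and TGTNC with 3 bases between them, in 0.387%. Neither was found in a window of the 5 genes searched. Per1 held the TGACG core at positions -246 and -132 of its 2 windows, and an E-box at position -166 of the first. A match describes letters only, and the windows leave out distant elements.

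In freshly sorted cells, Nr3c1 did not separate the gestation groups. It measured 7.63 and 5.91 RPKM in virgin mice, 5.02 and 6.33 RPKM at gd6.5 and 6.68 and 4.21 RPKM at gd8.5. The 3 groups overlapped. Between gd8.5 and virgin mice the log2 fold change was -0.34 ± 0.29 (SE, n = 2 per group), with an adjusted p of 0.731.

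Tsc22d3 was the most abundant of the 6 genes in the gestation libraries, and its lowest libraries were those of gd8.5. It measured 24 and 25.2 RPKM in virgin mice, 19.3 and 20.6 RPKM at gd6.5 and 11.9 and 11.6 RPKM at gd8.5, and no 2 groups overlapped. At gd8.5 the log2 fold change from virgin mice was -1.13 ± 0.17, a 2.19-fold lower level with an adjusted p of 0.0608, which missed the threshold. The adjusted p was 0.0988 against gd6.5 and 0.154 for gd6.5 against virgin mice. With DESeq2 the adjusted p of gd8.5 against virgin mice was 6.19e-08 and by edgeR without a gene filter 0.00561, which pass. By edgeR in the wider set of genes it was 0.234, and only 4 of 14 settings passed. The log2 fold change was -1.17 without virgin library 1 and -1.1 without virgin library 2. In bulk libraries, fewer cells that express a gene and less RNA per cell cannot be told apart.

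The other induced genes were lower in value at gd8.5 without passing the test. Fkbp5 measured 2.05 and 2.39 RPKM in virgin mice, 2 and 1.83 RPKM at gd6.5 and 1.64 and 1.14 RPKM at gd8.5. Per1 measured 5.08 and 3.35 RPKM, 2.5 and 3.76 RPKM, and 2.71 and 1.54 RPKM in the same order. For both, the gd8.5 libraries lay below both virgin libraries. The log2 fold changes of gd8.5 against virgin mice were -0.69 ± 0.34 for Fkbp5 (adjusted p = 0.552) and -0.99 ± 0.41 for Per1 (adjusted p = 0.49).

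Neither prostaglandin receptor passed the test in gestation. Ptger2 measured 4.3 and 2.24 RPKM in virgin mice, 2.71 and 3.1 RPKM at gd6.5 and 6.51 and 4.01 RPKM at gd8.5. Ptger4 measured 5.03 and 2.34 RPKM, 4.68 and 4.83 RPKM, and 2.86 and 2.96 RPKM. From gd6.5 to gd8.5, Ptger2 was higher in both libraries and Ptger4 lower in both. The adjusted p were 0.46 and 0.534.

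None of the 6 genes was called in the 3 gestation comparisons by edgeR, and limma-voom called none. At an unadjusted p below 0.05, 0 of the 6 passed for gd6.5 against virgin mice, 2 for gd8.5 against virgin mice and 1 for gd8.5 against gd6.5, and DESeq2 called 0, 1 and 0. Of all genes, 6.18%, 0.422% and 0% were called in these comparisons among those above 10 RPKM, where Tsc22d3 was tested. Among the wider set of genes, where the other 5 were tested, 0.0356%, 0.0356% and 0% were called. For gd8.5 against gd6.5, where edgeR called no gene, 1073 and 1637 genes of the 2 sets had an unadjusted p below 0.05, DESeq2 called 221 and 301, and limma-voom called 0 and 0. For gd8.5 against virgin mice the median log2 fold change of the 6 genes was -0.52, against 0.00 over all genes.

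**Figure D1:**
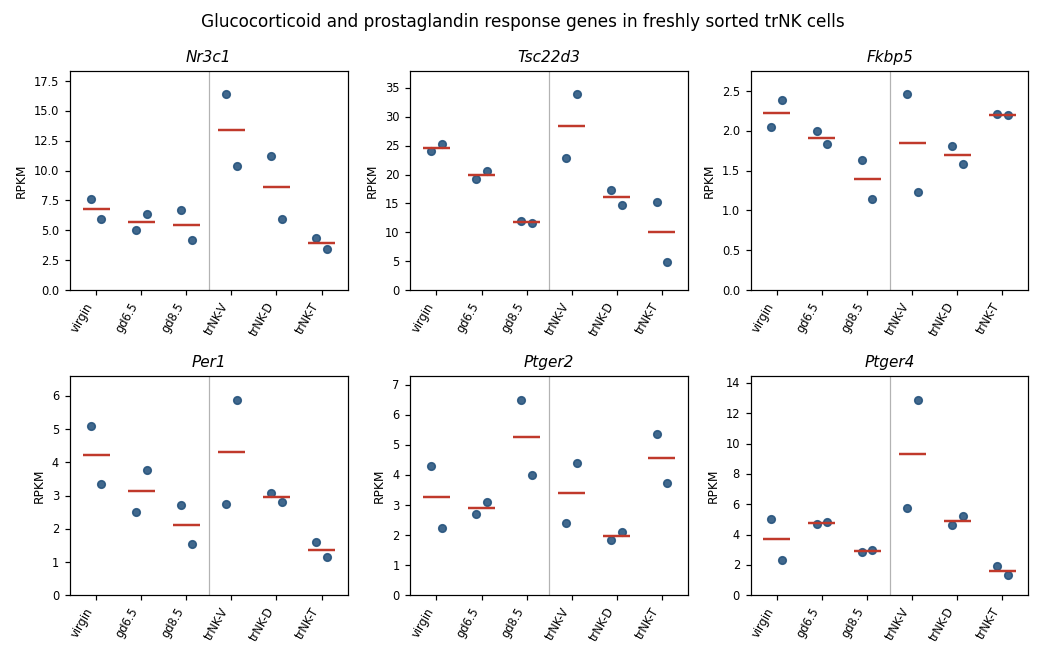
Level of each gene in RPKM (linear axis) in the freshly sorted trNK cells, with 1 point per library and a line at the mean of the 2 libraries of a group. Tsc22d3 runs from 24 and 25.2 RPKM in virgin mice to 11.9 and 11.6 RPKM at gd8.5, and Ptger4 from 5.76 and 12.9 RPKM in trNK-V to 1.9 and 1.34 RPKM in trNK-T.

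Across the sorted subsets of gd8.5, the receptor itself was lowest in terminal cells. Nr3c1 measured 16.4 and 10.4 RPKM in trNK-V, 11.2 and 5.99 RPKM in trNK-D and 4.4 and 3.46 RPKM in trNK-T. The trNK-T libraries lay below all others, whereas trNK-V and trNK-D overlapped. Nr3c1 fell 3.39-fold from trNK-V to trNK-T, with a log2 fold change of -1.76 ± 0.37 and an adjusted p of 0.0155. The call was lost without trNK-V library 1 (adjusted p = 0.0632) and without trNK-T library 2 (0.0968). Stromal markers were also highest in trNK-V library 1, with a summed level of 51.9 RPKM against 4.6 RPKM in trNK-V library 2, 4.77 and 2.11 RPKM in trNK-D and 0.513 and 0.688 RPKM in trNK-T, and their part in the Nr3c1 difference was not tested. The adjusted p was 0.364 for trNK-D against trNK-V and 0.144 for trNK-T against trNK-D.

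Tsc22d3 followed the same order in value. It measured 22.9 and 33.9 RPKM in trNK-V, 17.3 and 14.8 RPKM in trNK-D and 15.3 and 4.87 RPKM in trNK-T. The trNK-T libraries stood far apart from each other and overlapped those of trNK-D. Against trNK-V the log2 fold change was -1.49 ± 0.50 (adjusted p = 0.0586). The adjusted p was 0.0102 with DESeq2, 0.0376 with limma-voom, 3.83e-05 by edgeR without a gene filter and 0.0135 without trNK-T library 1, so the call depended on the tool and the filter as well as on 1 library. The log2 fold change was -2.52 without trNK-T library 1 and -0.89 without trNK-T library 2. Only 4 of 14 settings passed, and by edgeR in the wider set of genes the adjusted p was 0.146.

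Neither Per1 nor Fkbp5 passed edgeR's test in the subsets. Per1 measured 2.75 and 5.89 RPKM in trNK-V, 3.08 and 2.81 RPKM in trNK-D and 1.61 and 1.14 RPKM in trNK-T, which lay below the other libraries (log2 fold change from trNK-V -1.47 ± 0.48, adjusted p = 0.113). For Per1 that value ran from -1.91 to -0.80 over the settings, lowest in size without trNK-V library 2, and DESeq2 called it (adjusted p = 0.0408). Fkbp5 measured 2.46 and 1.23 RPKM, 1.81 and 1.58 RPKM, and 2.21 and 2.2 RPKM. Its trNK-T libraries lay between those of trNK-V (log2 fold change 0.45 ± 0.42, adjusted p = 0.542).

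Ptger4 fell from virginal to terminal cells. It measured 5.76 and 12.9 RPKM in trNK-V, 4.6 and 5.21 RPKM in trNK-D and 1.9 and 1.34 RPKM in trNK-T, with no overlap between any 2 subsets. From trNK-V to trNK-T it fell 5.07-fold, with a log2 fold change of -2.34 ± 0.45 and an adjusted p of 0.0314. The call was lost with limma-voom (adjusted p = 0.0713), without trNK-V library 2 (0.0899), without trNK-T library 1 (0.108) and without trNK-T library 2 (0.218). The log2 fold change ran from -2.81 to -1.63 over the settings, smallest in size without trNK-V library 2. Against trNK-D the adjusted p was 0.291.

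Ptger2 was lowest in value in trNK-D. It measured 2.42 and 4.39 RPKM in trNK-V, 1.83 and 2.11 RPKM in trNK-D and 5.37 and 3.73 RPKM in trNK-T. Both trNK-T libraries lay above both of trNK-D, with a log2 fold change of 1.27 ± 0.44 and an adjusted p of 0.355. In trNK-V, Ptger4 was above Ptger2 in both libraries, and in trNK-T Ptger2 was above Ptger4 in both, as levels per length. The difference between the receptors was not tested, and the order in trNK-T was not seen in the terminal-like single cells, described further on, where Ptger4 had 8 UMIs and Ptger2 had 1. Over all kept single cells, labelled as virgin and gd8.5, Ptger4 also had more UMIs than Ptger2 (549 against 45). The single cells therefore cannot check the order seen in trNK-T.

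For trNK-T against trNK-V, 2 of the 6 genes were called, both lower. Of all genes above 10 RPKM, the set in which Nr3c1 was tested, 21.2% were called and 13.1% were called lower. In the wider set of Ptger4 the shares were 6.75% and 3.4%. The median log2 fold change of the 6 genes was -1.39 in the wider set, against -0.05 over all genes. No gene of the 6 was called for trNK-D against trNK-V (0.32% and 0.00698% of all genes called in the 2 sets) or for trNK-T against trNK-D (1.75% and 0.0767%). By unadjusted p below 0.05, 0 and 3 of the 6 passed in these comparisons, DESeq2 called 0 and 2, and limma-voom called none. Macrophage markers were lowest in trNK-T, and so were the trNK markers, with a summed level of 799 and 644 RPKM against 1379 and 1388 RPKM in trNK-V. Their part in these differences was not tested.

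**Figure D2:**
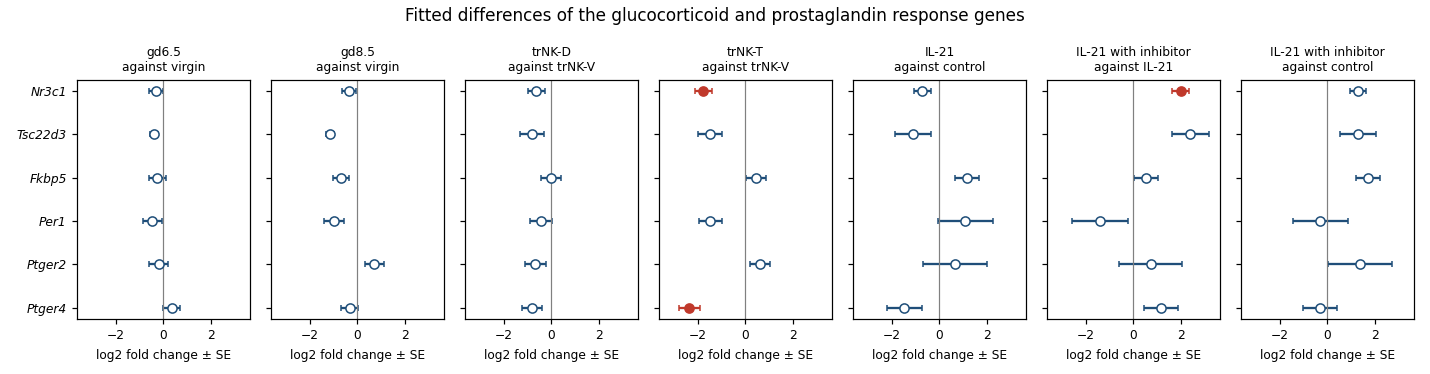
Log2 fold changes of the 6 genes with their SE in the comparisons of fresh and cultured cells, with filled points for called genes. Nr3c1 at -1.76 and Ptger4 at -2.34 are called for trNK-T against trNK-V, and Nr3c1 at 1.98 for IL-21 with inhibitor against IL-21.

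Other genes around the receptor moved with the subsets in both directions. Of 16 receptor chaperones and cofactors, Ptges3, the p23 co-chaperone that also has prostaglandin E synthase activity, rose from 105 and 107 RPKM in trNK-V to 198 and 215 RPKM in trNK-T (log2 fold change 1.16 ± 0.19, adjusted p = 0.0212). Hsd11b1, which regenerates active glucocorticoid inside the cell, fell from 107 and 91.2 RPKM to 27.2 and 28.6 RPKM (-1.63 ± 0.17, adjusted p = 0.0105). The other 14 were not called. These lists were tested in the wider set, where 6.75% of all genes were called and 3.4% called lower. Hsd11b1 was also 71.5 and 79.2 RPKM in trNK-D, so the 3 subsets did not overlap.

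Of 21 other glucocorticoid-induced genes tested, 2 rose and 3 fell in trNK-T against trNK-V, against 6.75% of all genes called and 3.4% called lower, and their median log2 fold change was -1.30. The metallothioneins Mt1 and Mt2, which bind zinc and also answer to metals, rose. Mt1 measured 16 and 23.7 RPKM in trNK-V, 357 and 241 RPKM in trNK-D and 970 and 481 RPKM in trNK-T, a log2 fold change of 5.37 ± 0.43 (adjusted p = 0.00599). Klf13, a zinc finger factor, fell from 12.6 and 14.4 RPKM to 4 and 2.88 RPKM (adjusted p = 0.0159). Zfp36, which promotes decay of cytokine mRNA, fell from 49.4 and 122 RPKM to 13.6 and 6.73 RPKM (adjusted p = 0.0262).

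Of the cAMP genes, 2 of 17 signalling genes and 1 of 12 induced genes fell and none rose, against 3.4% of all genes called lower. Adcy7, an adenylate cyclase, fell from 56.5 and 73.3 RPKM in trNK-V to 16.4 and 16.4 RPKM in trNK-T (log2 fold change -1.80 ± 0.22, adjusted p = 0.014). Pde7a, a cAMP phosphodiesterase, fell from 7.02 and 6.94 RPKM to 1.98 and 1.29 RPKM (adjusted p = 0.0299). The cAMP-induced gene was Fos, which is also on a list of 11 genes that respond to handling and heat shock. Of that list 4 fell and 1 rose, against 6.75% of all genes called and 3.4% called lower. Its median log2 fold change was -2.38. The summed level of the list was 1701 and 3271 RPKM in trNK-V, 895 and 910 RPKM in trNK-D and 605 and 439 RPKM in trNK-T. The part of handling in the differences of the 6 genes was not tested.

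Among other prostanoid receptors, Ptger3 had levels in the range of Ptger2 and Ptger4 in some libraries. Ptger3 (EP3), which lowers cAMP, measured 0.414 to 4.49 RPKM in the gestation libraries and 0.0125 to 4.57 RPKM in the subsets, whereas Ptger1 stayed at or below 0.263 RPKM and Ptgir, Ptgdr and Ptgfr at or below 0.0265 RPKM in these libraries. Tbxa2r, the thromboxane receptor, ran from 0 to 2.52 RPKM in the subsets and from 0 to 2.84 RPKM in the inhibitor culture. The mineralocorticoid receptor Nr3c2 was at most 1.94 RPKM and the progesterone receptor Pgr at most 0.193 RPKM in any library. In the gestation comparisons, the cAMP-induced gene Nr4a1, an orphan nuclear receptor, fell from 55.8 and 59.1 RPKM in virgin mice to 13 and 11.9 RPKM at gd8.5 (adjusted p = 0.0435), the only called gene of these lists at gd8.5 against virgin mice.

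In the inhibitor culture, Nr3c1 was lowest with IL-21 and highest with IL-21 and the STAT3 inhibitor. It measured 8.47 and 8.26 RPKM in the control, 3.7 and 5.35 RPKM with IL-21 and 16.4 and 16.7 RPKM with IL-21 and inhibitor, and no 2 groups overlapped. Nr3c1 rose 3.95-fold with the inhibitor over IL-21 alone, with a log2 fold change of 1.98 ± 0.35 and an adjusted p of 0.0319. The call was lost when any of the 6 libraries was left out, with adjusted p of 0.0555 to 0.178 and log2 fold changes of 1.80 to 2.21. It was also lost in the wider set of genes (adjusted p = 0.118) and with the replicate number as a block (0.109). When only the 2 groups compared entered the fit, the adjusted p was 0.0567. For Nr3c1 the adjusted p was 0.0791 for inhibitor against control and 0.613 for IL-21 against control.

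Tsc22d3 had the same order in value with a wide spread under IL-21. It measured 6.1 and 6.33 RPKM in the control, 0.661 and 4.53 RPKM with IL-21 and 13.7 and 10.9 RPKM with the inhibitor. The IL-21 libraries stood far apart from each other. The log2 fold change of inhibitor against IL-21 was 2.38 ± 0.78 (adjusted p = 0.156), and it was 1.6 without library 1 and 4.26 without library 2 of the IL-21 group. That difference passed with DESeq2 (adjusted p = 0.0175) and by edgeR without a gene filter (0.0106), but in only 3 of 14 settings. By edgeR in the wider set of genes the adjusted p was 0.332. The log2 fold change of IL-21 against control was -1.11 ± 0.75 (adjusted p = 0.768).

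Fkbp5 was above the control with IL-21, with and without inhibitor, in value. It measured 1.14 and 1.32 RPKM in the control, 2.65 and 1.95 RPKM with IL-21 and 3.29 and 2.93 RPKM with the inhibitor. The groups did not overlap, and the log2 fold change of inhibitor against control was 1.69 ± 0.50 (adjusted p = 0.23). Per1 stayed between 0.222 and 1.57 RPKM.

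Ptger4 measured 3.44 and 8.16 RPKM in the control, 2.12 and 1.29 RPKM with IL-21 and 5.68 and 1.77 RPKM with the inhibitor. Both IL-21 libraries lay below both controls, and the inhibitor libraries overlapped both groups. The log2 fold change of IL-21 against control was -1.47 ± 0.73 (adjusted p = 1). Ptger2 stayed between 0.0824 and 1.71 RPKM, with overlap between all groups.

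Only Nr3c1, 1 of the 6 genes, was called for inhibitor against IL-21, where 2.96% of all genes above 10 RPKM were called and 1.8% called higher (0.00733% called in the wider set). None was called for IL-21 against control (0.289% and 0% of all genes called in the 2 sets) or inhibitor against control (4.74% and 0.154%). By unadjusted p below 0.05, 0 and 2 of the 6 passed there, and DESeq2 called 0 and 2 and limma-voom none. In the wider set edgeR called no gene for IL-21 against control, where 710 genes had an unadjusted p below 0.05, DESeq2 called 191 and limma-voom 4. The inhibitor libraries also differed in stress genes. The summed level of the 11 handling and heat shock genes was 2388 and 2161 RPKM with the inhibitor, against 186 to 429 RPKM in the other 4 libraries. The receptor chaperones Hsp90ab1, Hspa8 and Stip1 rose over control, Hsp90ab1 from 418 and 303 RPKM to 3106 and 2601 RPKM (log2 fold change 3.31 ± 0.35, adjusted p = 0.0366). Cdkn1a, a cell cycle inhibitor on the list of glucocorticoid-induced genes, rose over control from 38.6 and 27.4 RPKM to 223 and 227 RPKM (adjusted p = 0.041). With IL-21 alone it measured 86.4 and 75.8 RPKM. Against IL-21 alone the lists were tested only in the wider set, where Hsph1 was the 1 called gene of 13647 (adjusted p = 0.0166). Cdkn1a, these chaperones and Nr3c1 (0.118) were not called in that set. In value the chaperones were higher with the inhibitor there too. With IL-21 alone Hsp90ab1 measured 430 and 434 RPKM, and Hspa8 559 and 577 RPKM against 3578 and 3877 RPKM with the inhibitor. The trNK markers were lower in the groups with IL-21, with a summed level of 1099 and 966 RPKM in the control, 313 and 367 RPKM with IL-21 and 228 and 234 RPKM with the inhibitor. The part of the stress genes and of this shift in the differences of Nr3c1 and Tsc22d3 was not tested.

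In the time course, the 6 genes were low, and 3 of them were at 0 at 72 h without IL-21. Tsc22d3 without IL-21 measured 1.68 and 2.83 RPKM at 0 h, 5.79 and 2.66 RPKM at 6 h, 3.02 and 2.32 RPKM at 24 h and 0 and 0 RPKM at 72 h. With IL-21 it measured 1.45 and 3.12 RPKM, 1.57 and 1.23 RPKM, 2.56 and 2.63 RPKM, and 6.38 and 0.993 RPKM. The libraries of 72 h without IL-21 had no read of Tsc22d3, whereas those with IL-21 had 1013 and 123 counts. Against a floor of 3 counts per library, the mean of Tsc22d3 fell at least 131-fold from 24 to 72 h without IL-21 (adjusted p = 0.000516). That bound was 148-fold from library 1 of 24 h alone and 114-fold from its library 2 alone. At 72 h the mean was at least 181-fold higher with IL-21 (adjusted p = 0.000528). This second bound rests on the mean of unequal libraries. It was 313-fold from library 1 of the IL-21 group alone and 48.7-fold from its library 2 alone. The adjusted p beside such bounds test for any difference, not for a fold of that size. The control of the inhibitor culture, also kept 3 days without IL-21, had 495 and 501 counts of Tsc22d3, 201 and 227 of Fkbp5 and 8 and 130 of Ptger2.

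Fkbp5 was likewise at 0 at 72 h without IL-21. Without IL-21 it measured 1.47 and 1.05 RPKM at 0 h, 1.53 and 1.34 RPKM at 6 h, 0.784 and 1.31 RPKM at 24 h and 0 and 0 RPKM at 72 h. With IL-21 it measured 0.618 and 3.05 RPKM, 1.58 and 2.5 RPKM, 2.9 and 2.34 RPKM, and 0.979 and 0.459 RPKM, the last from 339 and 124 counts. By the mean it fell at least 112-fold from 24 to 72 h without IL-21 (adjusted p = 0.000272), or 83.8-fold from library 1 of 24 h alone. It was at least 76.9-fold higher by the mean with IL-21 at 72 h (adjusted p = 0.000415), or 49.1-fold from library 2 of the IL-21 group alone. With IL-21, both 72 h libraries of Fkbp5 lay below both of 24 h (log2 fold change -1.66 ± 0.66, adjusted p = 0.289), whereas those of Tsc22d3 overlapped.

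Ptger2 was also without reads at 72 h without IL-21. Without IL-21 it measured 0.888 and 1.17 RPKM at 0 h, 0.935 and 0.391 RPKM at 6 h and 0.457 and 0.382 RPKM at 24 h. With IL-21 it measured 0.437 and 1.08 RPKM, 0.833 and 0.877 RPKM, 1.03 and 1.26 RPKM, and 0.205 and 0.0877 RPKM at 72 h, the last from 39 and 13 counts. By the mean it fell at least 24.6-fold from 24 to 72 h without IL-21 (adjusted p = 0.00222), or 22.4-fold from library 2 of 24 h alone. It was at least 8.6-fold higher by the mean with IL-21 at 72 h (adjusted p = 0.00656), or 5.15-fold from library 2 of the IL-21 group alone.

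The libraries of 72 h without IL-21 had more zeros than others. Of 7657 genes with at least 13 counts in each of the other 14 libraries of the time course, 221 (2.89%) had 0 counts in both. In the other 7 groups, chosen the same way, this number was 0 to 5. Among 2026 genes with a mean level of 0.717 to 2.73 RPKM in the other libraries, the range of Tsc22d3, Fkbp5 and Ptger2, 97 (4.79%) were at 0 in both libraries and 366 in 1 of them. The libraries also had 10724 and 11665 detected genes, and the part of this loss of detected genes in the 3 calls was not tested. The summed level of 7 macrophage markers moved the same way, with 38.4 and 71.9 RPKM at 24 h and 9.19 and 0 RPKM at 72 h without IL-21, against 67.9 and 27.8 RPKM at 72 h with IL-21. In each of the 2 libraries of 72 h with IL-21, 6 of the 7 markers were at 0. Their part in the 3 calls was not tested.

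The other 3 genes were detected at 72 h without IL-21. Nr3c1 measured 0.811 and 4.87 RPKM there and 2.81 and 2.95 RPKM with IL-21 (log2 fold change -0.14 ± 0.74, adjusted p = 1). Ptger4 measured 1.47 and 2.23 RPKM against 2.11 and 1.38 RPKM (-0.25 ± 0.70, adjusted p = 0.955). Per1 was at most 0.198 RPKM from 0 to 24 h, and at 72 h it measured 0.466 and 1.59 RPKM without and 0 and 0.473 RPKM with IL-21 (-2.04 ± 2.38, adjusted p = 0.711).

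At 72 h, IL-21 against none called 3 of the 6 genes, all higher, where 5.07% of all genes were called and 4.41% called higher. From 24 to 72 h without IL-21 the same 3 were called lower, where 7.68% of all genes were called and 6.77% called lower. With IL-21 over that interval edgeR called none of the 6 (2.31% of all genes), 2 passed an unadjusted p below 0.05, and DESeq2 called 1 and limma-voom none. The calls for IL-21 against none at 72 h and for 24 to 72 h without IL-21 share the libraries of 72 h without IL-21 and are not separate evidence. When only the 2 groups compared entered the fit, none of the 3 calls for IL-21 at 72 h held, with an adjusted p of 0.905 for each. The 3 calls for 24 to 72 h without IL-21 were lost as well. Their adjusted p were 0.337 for Tsc22d3, 0.34 for Fkbp5 and 0.371 for Ptger2. At 0, 6 and 24 h, edgeR called none of the 6 for IL-21 against none (0%, 0.0672% and 0.00672% of all genes). By unadjusted p below 0.05, 1, 0 and 0 of the 6 passed, and neither DESeq2 nor limma-voom called any. Between 0 and 6 h and between 6 and 24 h, edgeR called none of the 6 either, without IL-21 (0% and 0% of all genes) or with it (0.101% and 0.00672%), and neither did DESeq2 or limma-voom. Over these 4 steps only Ptger4 between 0 and 6 h with IL-21 had an unadjusted p below 0.05. Of all genes, edgeR called none at 0 h or for these steps without IL-21. An unadjusted p below 0.05 was reached by 268 genes at 0 h, 269 between 0 and 6 h and 494 between 6 and 24 h, while DESeq2 called 40, 49 and 92 and limma-voom 0, 0 and 9.

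**Figure D3:**
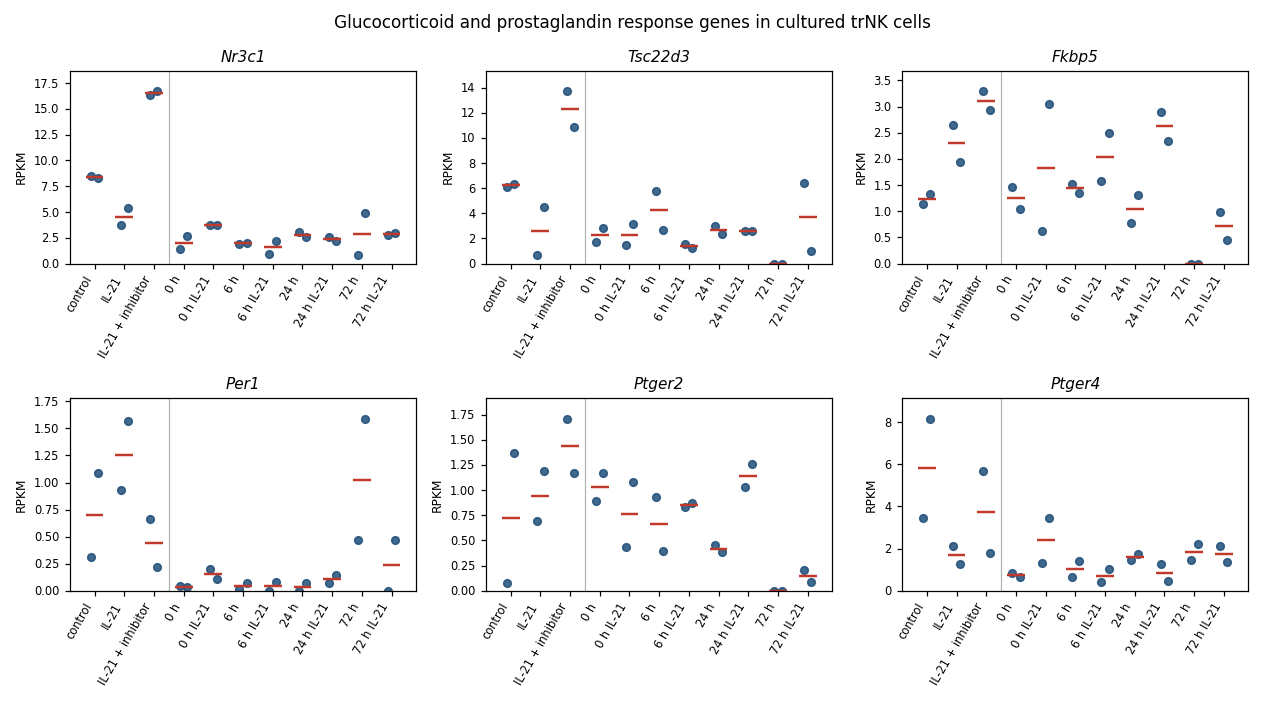
Level of each gene in RPKM (linear axis) in the inhibitor culture and the time course, with 1 point per library and a line at the mean of the 2 libraries of a group. Nr3c1 stands at 16.4 and 16.7 RPKM with IL-21 and inhibitor, and Tsc22d3, Fkbp5 and Ptger2 stand at 0 in both libraries of 72 h without IL-21.

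The change of the IL-21 difference with time was tested itself. Between 6 and 24 h edgeR called none of the 6 genes (0% of all genes), and none had an unadjusted p below 0.05. Of all genes 307 had an unadjusted p below 0.05 there, and DESeq2 called 64 and limma-voom 0. Between 24 and 72 h the change was called for Tsc22d3 (adjusted p = 0.00195) and Fkbp5 (0.00386) and missed the threshold for Ptger2 (0.0585), where 2.43% of all genes were called and 2.2% called higher. Between 6 and 72 h it was called for Tsc22d3 (0.000992), Fkbp5 (0.00239) and Ptger2 (0.0305), where 2.47% of all genes were called and 2.29% called higher. The Ptger2 call held in 12 of 23 settings. It was lost with limma-voom (adjusted p = 0.0768), without a gene filter (0.119), with a replicate block (0.0527), with the groups compared only (0.376) and when any of 7 libraries was left out (0.0559 to 0.151): both of 0 h without IL-21, library 1 of 6 h without IL-21, and both of 6 h and both of 24 h with IL-21. With the groups compared only, the calls of Tsc22d3 and Fkbp5 were lost as well. Both tests up to 72 h rest on the libraries with 0 reads, so that no size is given. Of the clock genes, Dbp, an output gene of the clock, also had nearly no reads at 72 h without IL-21, with 2 and 0 counts against 234 and 90 with IL-21, and its IL-21 difference changed between 24 and 72 h (adjusted p = 0.0256). Cry1, a repressor of the clock, was also called lower from 24 to 72 h without IL-21 (adjusted p = 0.0333), from 46 and 45 to 0 and 0 counts, but had only 4 and 0 counts at 72 h with IL-21. For IL-21 against none at 72 h, Dbp was the only called gene of 11 clock genes tested. The median log2 fold change of that list was -1.61, against 0.01 over all genes. Of 21 other glucocorticoid-induced genes tested, only Cebpb was called there (adjusted p = 0.0464), with 0 and 0 counts without and 56 and 12 with IL-21. Med1, a receptor cofactor, was called lower there (log2 fold change -1.99 ± 0.50, adjusted p = 0.0433). From 24 to 72 h without IL-21, Adcy7 was called higher (2.01 ± 0.49, 0.0272), and Hsp90ab1 (0.00801) and Hsp90aa1 (0.0457) lower. With IL-21 over that interval Hsp90ab1 (0.0218), Hsp90aa1 (0.0464) and the heat shock gene Hspe1 (0.0109) were called lower.

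The single cells were CD45+NK1.1+NKp46+ sorted uterine cells. The labels list a virgin and a gd8.5 sample, but both files hold the same 15175 cells and split the genes between them, and tags that assign cells to mice were not used here, so they were taken as 1 sample without a test. Without an upper UMI limit 13084 cells passed, and most of them were removed by the limit used. Cells with over 200 and under 2500 UMIs and under 10% mitochondrial UMIs were kept, which left 4338. They were clustered without the genes of the lists described here. Their clusters were then named from marker genes, where the ILC1 marker Il7r is also on the list of glucocorticoid-induced genes. By these names, 1696 cells in 5 clusters were trNK-like. The smallest of these clusters had 52 cells. It met only Ncr1, Klrb1c and Eomes, which the cNK markers share, and was counted as trNK-like. The sort did not hold NK cells alone, since 737 cells were macrophage-like, 192 T-like and 231 B-like, and 469 cells stayed unnamed. Of the unnamed, a cluster of 343 cells met 4 ILC1 markers and a cluster of 32 cells met 4 trNK markers. Both were left unnamed by the naming rules. Levels are CPM, the UMIs of a gene scaled to the total UMIs of all cells of a class, with exact Poisson 95% intervals that cover counting error only.

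Tsc22d3 was lower in trNK-like than in cNK-like and lymphocyte-like cells. It was 74.6 CPM (64.5 to 85.8) in trNK-like cells, and 46.5 CPM when cells were limited by genes in place of UMIs. It was 196 CPM (173 to 221) in 842 cNK-like cells, 210 CPM (164 to 265) in T-like cells and 183 CPM (142 to 231) in B-like cells. Macrophage-like cells had 76.1 CPM (60.9 to 94). Within trNK-like cells, the cluster of 735 cells with virginal stage markers had 104 CPM (86.9 to 124) and the cluster of 285 cells with terminal stage markers had 39.8 CPM (23.6 to 62.9). The first met only Tcf7, Tox and Cd27 of the virginal markers, the minimum of 3 for the name. Il21r, Gata3, Tbx21 and Itgam did not pass. The second met Tnfrsf9, Cd55, Klrg1, Il2ra, Prf1, Gzmb and Spp1 of the terminal markers. These stage clusters depend on the cell filter: trNK-like cells formed 5 clusters under the limits used, 2 with limits on genes in place of UMIs and 1 without the upper UMI limit, where the stages cannot be compared by cluster.

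Fkbp5 had the opposite order in the stage clusters. It was 44.3 CPM (33.3 to 57.8) in the virginal-like cluster and 122 CPM (91.6 to 158) in the terminal-like cluster, with 68.5 CPM (58.9 to 79.3) over all trNK-like cells. Per1 was 85.4 CPM (69.7 to 103) in the virginal-like and 39.8 CPM (23.6 to 62.9) in the terminal-like cluster, and 116 CPM (97 to 138) in macrophage-like cells.

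Ptger4 was 51.7 CPM (39.7 to 66.2) in the virginal-like and 17.7 CPM (7.63 to 34.8) in the terminal-like cluster, and reached 151 CPM (130 to 176) in macrophage-like cells. Ptger2 was rare, at 8 CPM (4.95 to 12.2) in trNK-like cells from 21 UMIs, and 4.67 CPM without the upper UMI limit. Its intervals overlapped between the 2 stage clusters, at 4.92 CPM (1.81 to 10.7) and 2.21 CPM (0.0559 to 12.3), so no difference was detectable at this depth.

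Free RNA can put UMIs into cells that do not express a gene. Erythrocyte-like cells had 2 UMIs of Tsc22d3, 2 of Fkbp5, 1 of Per1 and none of Ptger2 or Ptger4 in 62 cells with a median of 1731 UMIs. A UMI of Tsc22d3 was found in 3.23% of these cells and in 9.32% of trNK-like cells, whose median was 1574 UMIs. The macrophage gene C1qa was at 1486 CPM in macrophage-like cells and at 16.4 to 46.6 CPM in the trNK-like clusters. The immediate early gene Fos was at 1510 CPM in the virginal-like and 172 CPM in the terminal-like cluster, and Mt1 at 117 and 1025 CPM. Their part in the differences of the 5 genes was not tested.

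**Figure D4:**
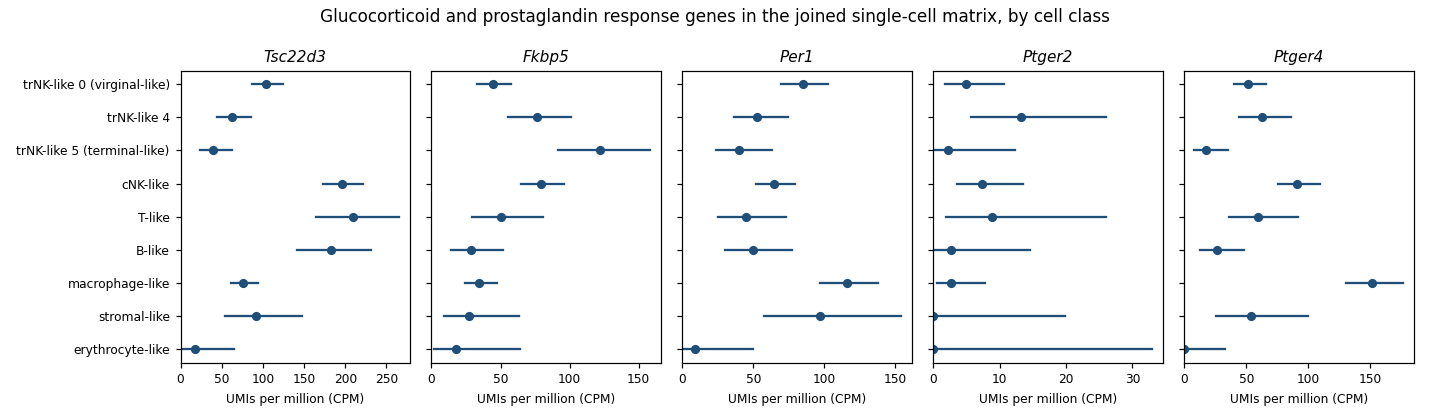
Level of 5 genes in CPM (linear axis from 0) in the cell classes and the 3 largest trNK-like clusters of the joined single-cell matrix, with bars for the exact Poisson 95% interval. Fkbp5 is 122 CPM in the terminal-like cluster and 44.3 CPM in the virginal-like cluster, whereas Tsc22d3 is 39.8 and 104 CPM.

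Across the 34 bulk libraries, after each experiment's mean was subtracted, the 6 genes were only loosely alike. The highest Pearson correlations of log2(RPKM + 1) were 0.55 for Fkbp5 with Ptger2, 0.54 for Nr3c1 with Ptger4 and 0.52 for Nr3c1 with Tsc22d3, and the lowest was -0.40 for Fkbp5 with Per1. Among 2662 genes, the closest to Nr3c1 were Sf3b1 (0.71), Slc38a2 (0.66) and Ccnl1 (0.65), to Tsc22d3 Chmp3 (0.79), Exoc6 (0.76) and Btg2 (0.75), and to Fkbp5 Lcp1, Ahsa1 and Rars (0.85 each). Per1 was closest to Klra13-ps (0.74), Mir142hg (0.69) and Rbm39 (0.68), Ptger2 to Zfp52 (0.67), Eif3c (0.65) and Ghitm (0.65), and Ptger4 to H2-Q6 (0.74), Gimap3 (0.74) and Lax1 (0.69). Libraries of a group share their condition, so these values are descriptions, and H2-Q6 and Klra13-ps belong to families whose reads are hard to assign.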

How the data were processed

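The authors deposited raw counts per gene for 34 bulk libraries and UMI counts per cell and gene for the single cells. Per the labels' processing notes, bulk reads were aligned with HISAT2 2.1.0 to mm10 and counted with featureCounts, whereas the methods name RSEM. The strand setting was not given in the sources used here. Most cDNA was made with SMART-Seq HT, and that of the time course with a Vazyme kit.

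Samples were grouped by their labels. Each experiment was fitted alone with edgeR 4.0.16 in R 4.3.3 (TMM, quasi-likelihood, Benjamini-Hochberg) on genes that exceeded 10 RPKM in the 2 libraries of at least 1 group, and members below that on the wider set that filterByExpr keeps. The SE is the absolute log2 fold change over the square root of F. Alternatives were DESeq2 1.42.0, limma 3.58.1, other scalings and filters, a replicate block, leaving out each library and, added after seeing the data, leaving out the 72 h libraries. Cells were clustered with scanpy 1.11.5 (2000 variable genes, 20 components, resolution 0.8) without a doublet caller. The limit of 2500 UMIs removed every cell at or above it, so that 4338 cells were kept, against 13084 without it. Whether it removed more cells of 1 stage than of another was not tested. Thresholds for naming classes were chosen with the clusters in view.

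Named are the 6 genes, at most 4 called genes per other list and comparison, and the 3 most alike genes of each; marker and stress genes stand beside results. Members and lists were chosen with earlier results of these data known. Libraries of gd11.5, cNK cells, Il21r-/- mice and chromatin accessibility were not analysed here.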

Additional observations from a re-analysis of the deposited data

Results flagged for a closer look

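The IL-21 difference of Tsc22d3 and Fkbp5 changed with time in culture, and that of Ptger2 was called between 6 and 72 h in only 12 of 23 settings. By edgeR's test of the change itself, the adjusted p was 0.00195 for Tsc22d3 and 0.00386 for Fkbp5 between 24 and 72 h. Between 6 and 72 h it was 0.000992 for Tsc22d3, 0.00239 for Fkbp5 and 0.0305 for Ptger2. Between 6 and 24 h no change was called for any of the 6 genes. The Ptger2 call was lost with limma-voom (0.0768) and when any of 7 libraries was left out, and no call held with the groups compared only. All calls rest on the 2 libraries of 72 h without IL-21, in which these genes had 0 counts and which had fewer detected genes than other libraries.

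Tsc22d3 lay on opposite sides with IL-21 after 3 days in the 2 cultures. In the inhibitor culture both IL-21 libraries lay below both controls (log2 fold change -1.11, adjusted p = 0.768). At 72 h of the time course both IL-21 libraries lay above both libraries without it, which had 0 reads. At 6 h of the time course, both IL-21 libraries (1.57 and 1.23 RPKM) lay below both without it (5.79 and 2.66 RPKM), as in the inhibitor culture. Tsc22d3 was picked from the 6 genes by the order of the libraries alone. Groups with and without IL-21 did not overlap for 4 of the 6 genes in the inhibitor culture and for 3 at 72 h. Of these genes, Fkbp5 lay above with IL-21 in both cultures. How often other genes lie on opposite sides was not counted, so the order of so few libraries is weak evidence. The difference between the cultures was not tested, and they were made with different library kits.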

How the results depend on the processing

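Over 132 fold changes of single genes, 2501 of 2559 alternative values kept their side of the threshold, 36 lost a call and 22 gained one. No called value changed sign, and 67 values that were not past the threshold did. The number of the 6 genes called moved in some comparisons. For gd8.5 against virgin mice (0 called) it was 1 with DESeq2 and 1 without a gene filter, and 0 to 1 when a library was left out. For trNK-T against trNK-V (2 called) it was 4 with DESeq2, 3 without a gene filter and 0 to 2 when a library was left out. With limma-voom it stayed at 2, but Tsc22d3 was called in place of Ptger4. For trNK-T against trNK-D (0 called) it was 2 with DESeq2 and 2 without a gene filter. For inhibitor with IL-21 against IL-21 (1 called) it was 2 with DESeq2, 2 without a gene filter, 0 with the groups compared only, 0 with filterByExpr and 0 to 1 when a library was left out. For inhibitor against control (0 called) DESeq2 called 2. For 72 against 24 h with IL-21 (0 called) DESeq2 called 1. With the groups compared only, the number was 0 in place of 3 for IL-21 at 72 h, 0 in place of 3 for 72 against 24 h without IL-21, 0 in place of 2 for the change of the IL-21 difference from 24 to 72 h and 0 in place of 3 from 6 to 72 h. The change from 24 to 72 h was called for 3 genes with DESeq2 and without either library 1 of 72 h or library 2 of 72 h with IL-21, where Ptger2 was added. That from 6 to 72 h was called for 2 with limma-voom and 2 without a gene filter, where Ptger2 was lost. The cause was not tested.

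Replicate numbers were not taken to pair the libraries. Correlations of replicate differences between groups ran from -0.26 to 0.15 in gestation, -0.56 to 0.64 in the inhibitor culture and -0.41 to 0.52 in the time course, and were positive in all 3 pairs of subsets (0.07 to 0.35). With a replicate block, the number called for inhibitor against IL-21 was 0 (Nr3c1 adjusted p = 0.109) and that for the change of the IL-21 difference from 6 to 72 h was 2. It changed no other number of called genes.

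In trNK-like cells, Tsc22d3 was 46.5 CPM with limits on genes in place of UMIs and 55.3 CPM without the upper UMI limit, against 74.6 CPM. Without the upper limit Fkbp5 was 58.4, Ptger2 4.67 and Ptger4 61.6 CPM.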
